A study of Mus musculus with 14 samples.

Results

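The Nodal signaling pathway was examined in single mouse blastocysts through 10 of its genes, measured by 12 of the 41174 gene probes on a whole mouse genome array with 27962 gene names. The genes were chosen by name: the ligand Nodal, the convertases Furin and Pcsk6, the co-receptor Tdgf1, the receptors Acvr1b and Acvr2b, the antagonists Lefty1 and Lefty2, and the effectors Smad2 and Foxh1. Acvr1b and Pcsk6 have 2 probes each and the other 8 genes have 1 probe each. The study produced cloned blastocysts from cumulus cells, the somatic cells that surround the oocyte, by 2 methods of somatic cell nuclear transfer (SCNT), fusion of the whole donor cell with an enucleated oocyte or injection of the donor nucleus, and asked whether the method affects the transcriptome. There were 4 fusion clones and 4 injection clones, all female, and 3 male and 3 female control embryos from in vitro fertilization (IVF), all at embryonic day 4.0 and cultured in KSOM medium. Per the methods, donor cells came from heterozygous Xist knockout mice on a BDF1 background (C57BL/6N crossed with DBA/2), recipient oocytes were from BDF1 females, and IVF controls were BDF1. The design text calls the controls matched in sex and genotype, and the labels of the blastocysts state no genotype. The labels give the tissue as blastocyst, although their extraction protocol names epiblasts or extraembryonic regions of single embryos. RNA of each sample was amplified in 2 rounds before labeling.

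Nodal is a secreted ligand of the TGF-beta family that is made as a precursor and cut to its active form by proprotein convertases such as Furin and Pcsk6 (also called Pace4). It binds activin receptors together with the co-receptor Tdgf1 (also called Cripto), and the receptors phosphorylate Smad2, which enters the nucleus and acts with the DNA-binding protein Foxh1. Lefty1 and Lefty2 are secreted antagonists and known targets of the pathway, so Nodal signaling switches on its own inhibitors. In the mouse embryo the pathway is best known for maintaining the epiblast and for patterning it after implantation.

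The stretches just upstream of the ligand and co-receptor genes are shown because Foxh1 and the Smad proteins act on DNA. The sequences are RefSeq's for GRCm38.p6, each 250 bases long and ending just before the start of the gene, read in the direction of the gene. Capitals mark matches to a Foxh1-type motif, AATNNACA, searched on both strands.

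Nodal (chr10:61417722-61417971, plus strand): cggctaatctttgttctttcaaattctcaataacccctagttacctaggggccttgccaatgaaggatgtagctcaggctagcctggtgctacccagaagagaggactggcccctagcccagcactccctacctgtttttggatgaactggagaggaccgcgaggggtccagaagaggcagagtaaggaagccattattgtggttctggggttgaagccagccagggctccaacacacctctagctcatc
Tdgf1 (chr9:110946159-110946408, minus strand): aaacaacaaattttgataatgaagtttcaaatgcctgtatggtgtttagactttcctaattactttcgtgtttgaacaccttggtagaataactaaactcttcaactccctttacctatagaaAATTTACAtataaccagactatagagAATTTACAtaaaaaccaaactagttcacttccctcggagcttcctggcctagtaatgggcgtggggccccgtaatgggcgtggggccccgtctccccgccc

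The Tdgf1 stretch holds 2 matches to AATNNACA, which begin at positions -127 and -101 from the gene start, and the Nodal stretch holds 0. Neither stretch holds the Smad-type motif CAGACA or the palindrome GTCTAGAC. Promoter sequences were sought for all members except Smad2 and found for 6 of them (Nodal, Tdgf1, Furin, Pcsk6, Acvr1b and Acvr2b). Of these 6, Tdgf1 is the 1 with AATNNACA and Furin the 1 with CAGACA, at position -44 of one of its starts and -190 of the other. Among all 32851 promoter stretches of this length, 10.9% hold AATNNACA, 17.1% hold CAGACA and 0.167% hold GTCTAGAC, so such matches are common in promoters for the first 2 motifs.

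Levels are given below as normalized log2 intensity, the log2 of the processed spot intensity after the 14 arrays were brought to 1 distribution. Intensities under 16 were set to 16, which is 4 on this scale, and values at 4 have no order among themselves. A probe was called well above background where the scanner software marked it so, which held for 57.4% to 65.2% of the gene spots of an array. A level can be compared between embryos for 1 probe but not between probes, since probes bind with different strength. Each group lay on a slide of its own, and clone and IVF arrays were read on different scanners with different software versions, so slide, scanner and group cannot be told apart. Nothing in the labels says that replicates came from separate culture batches, so p-values measure the spread between these embryos.

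The blastocyst label was checked against cell type markers. All 7 epiblast genes with a probe were well above background on all 14 arrays, among them Pou5f1 (13.78 to 14.92) and Nanog (11.57 to 14.08), and trophectoderm was represented by Cdx2 (15.03 to 16.45) and the keratin Krt8 (18.24 to 18.72). Primitive endoderm markers varied more. Gata4 was at 4 in fusion clones 1 and 4 and injection clones 1 and 2, and Sox17 was at 4 in fusion clone 4 and injection clone 2. Gata4 was still marked well above background in injection clone 1. In all 6 IVF embryos Gata4 and Sox17 were well above background. Sox7 was at 4 and not well above background in fusion clone 4 and in male IVF embryo 2. Gata6 (15.53 to 16.69), Pdgfra, Dab2, Lama1, Col4a1 and Hnf4a were well above background in all 14 embryos on their brightest probes. In RNA of whole embryos, fewer cells of a type and less RNA per cell cannot be told apart.

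In the 4 comparisons made, none of the 10 genes differed at a Benjamini-Hochberg adjusted p below 0.05 over all probes tested with limma, and none had groups that did not overlap. Male embryos were not tested against clones, which differ from them in sex. For fusion clones against female IVF embryos, 0 of 10 members were called and 0 had an unadjusted p below 0.05, where 9.5% of all probes were called, 17% passed the methods' threshold (an unadjusted p below 0.05 with at least a 2-fold difference) and 25.8% had groups that did not overlap. For injection clones against female IVF embryos, 0 of 10 were called and 1 (Lefty1) passed the methods' threshold, where 3.67% of all probes were called, 14% passed that threshold and 20.9% did not overlap. Fusion and injection clones differed at 0 of 9 tested members and at 0% of all probes, with 2.38% past the methods' threshold and 3.31% without overlap. Male and female IVF embryos differed at 0 of 10 members, against 0.0593% of all probes called, 5.79% past the methods' threshold and 12.8% without overlap. The comparisons of either clone type and of male embryos share the same 3 female embryos.

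The median difference of the members was close to that of all tested probes in fusion clones, at -0.07 against -0.12 on the log2 scale relative to female IVF embryos. It was -0.40 against -0.08 in injection clones relative to female IVF embryos. Fusion clones had a median difference from injection clones of 0.14 over 9 members against -0.01 over all probes. Male embryos had a median difference from female embryos of -0.26 against -0.03.

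**Figure D1:**
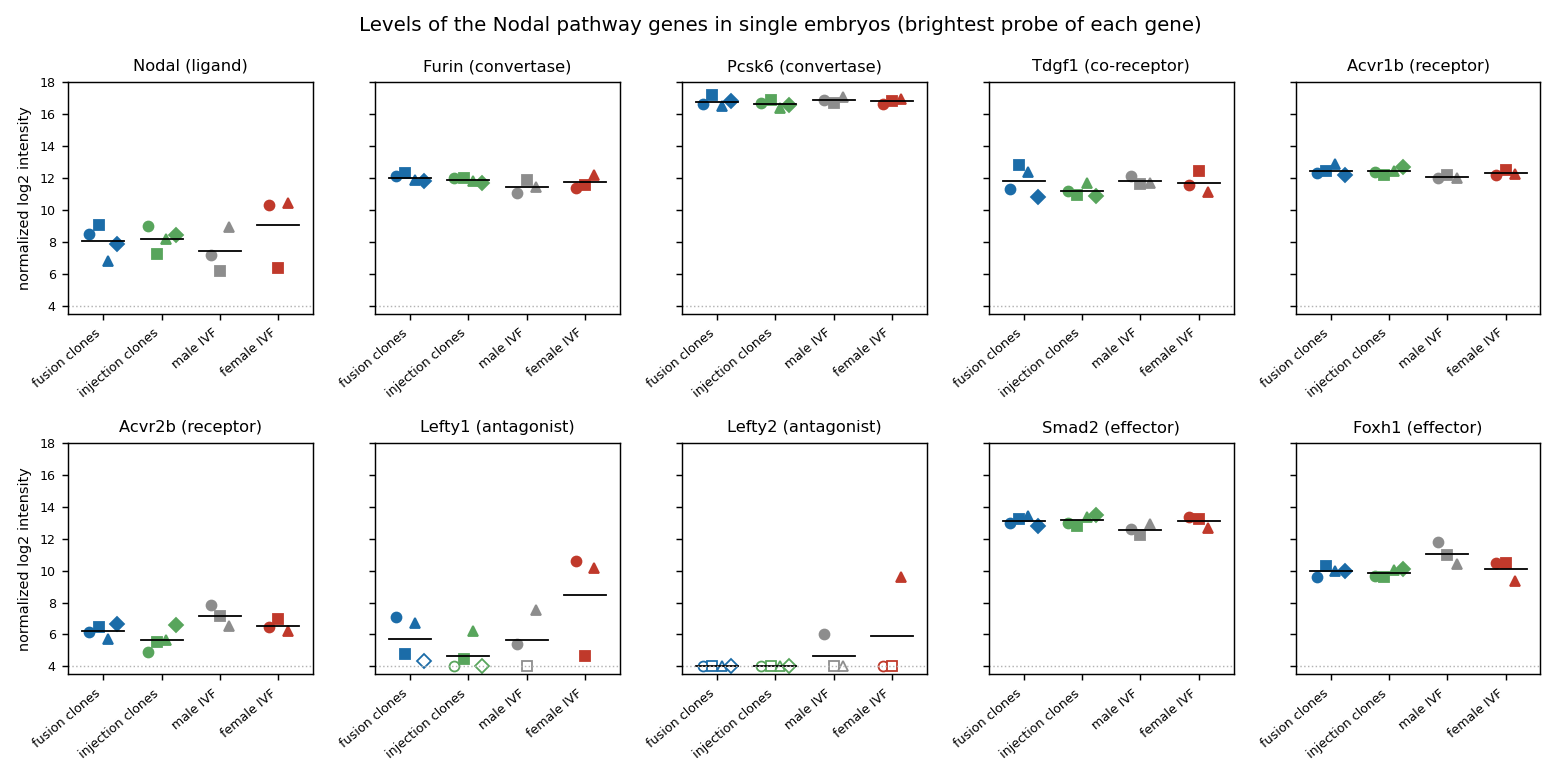
Normalized log2 intensity (vertical axes) of the 10 Nodal pathway genes in single embryos of the 4 groups. Each point is 1 embryo, its shape gives the replicate number (circle 1, square 2, triangle 3, diamond 4), filled points are well above background, open points are not, lines are group means and the dotted line is the lowest value, 4. Nodal and Lefty1 are high in female IVF embryos 1 and 3 but not in 2, and Lefty2 is open in all 8 clones. The groups overlap in each of the 4 comparisons tested. Foxh1 in all 3 male IVF embryos lies above all 8 clones, which were not tested against males and differ from them in sex, slide and scanner.

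Nodal itself was well above background in all 14 embryos and its groups overlapped in every comparison. Its log2 intensity was 8.49, 9.03, 6.81 and 7.89 in fusion clones 1 to 4, with a mean of 8.05 ± 0.95 (SD, n = 4). It was 8.97, 7.26, 8.17 and 8.41 in injection clones 1 to 4, with a mean of 8.20 ± 0.71 (SD, n = 4). The fusion clones held both the highest and the lowest value of the 8 clones. Male IVF embryos 1 to 3 measured 7.17, 6.14 and 8.93 (mean 7.41 ± 1.41, SD, n = 3), and female IVF embryos 1 to 3 measured 10.30, 6.36 and 10.42 (mean 9.02 ± 2.31, SD, n = 3). The highest values of Nodal were those of female embryos 1 and 3, while female embryo 2 was lower than all embryos except male embryo 2. All 8 clones lay between female embryo 2 and the other 2 female embryos.

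The log2 difference of Nodal from female IVF embryos was -0.97 in fusion clones (standard error 1.1, 95% interval -3.62 to 1.68, limma adjusted p = 0.584). In injection clones it was -0.82 (standard error 1.08, 95% interval -3.44 to 1.79, limma adjusted p = 0.652). These intervals are wide and do not exclude either an increase or a severalfold decrease. Without female embryo 2 the differences were -2.30 and -2.16, with adjusted p-values of 0.0866 and 0.0889, so that 1 embryo moved both by more than 1 log2 unit without making a call. Fusion minus injection clones gave -0.15 (95% interval -1.45 to 1.15, adjusted p = 0.968), and male minus female embryos gave -1.61 (95% interval -4.92 to 1.70, adjusted p = 0.724).

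The convertases that can cut the Nodal precursor were well above background in every embryo. Furin measured 12.10, 12.31, 11.84 and 11.80 in fusion clones 1 to 4 and 11.99, 11.97, 11.80 and 11.71 in injection clones 1 to 4. The 8 clones thus lay between 11.71 and 12.31. In IVF embryos the range was wider, with 11.03, 11.84 and 11.47 in males 1 to 3 and 11.40, 11.54 and 12.22 in females 1 to 3. The highest value of Furin was in fusion clone 2 and the lowest in male IVF embryo 1, and the clones overlapped the female embryos. The difference from female IVF embryos was 0.29 in fusion clones (95% interval -0.33 to 0.92, adjusted p = 0.502) and 0.15 in injection clones (95% interval -0.41 to 0.71, adjusted p = 0.703).

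Pcsk6, the other convertase, was read by 2 probes that varied differently. On the brighter probe, A_52_P376574, the 14 embryos lay between 16.38 (injection clone 3) and 17.19 (fusion clone 2), a range of 0.81 on the log2 scale. On the dimmer probe, A_51_P180905, they lay between 5.62 (injection clone 3) and 8.11 (male IVF embryo 1), a range of 2.49. Both probes thus had their lowest value in the same embryo. Relative to female IVF embryos the brighter probe differed by -0.01 in fusion clones and -0.16 in injection clones, with adjusted p-values of 0.985 and 0.590. The dimmer probe differed by -0.76 and -0.93, with adjusted p-values of 0.279 and 0.236. Male minus female embryos gave 0.08 on the brighter probe and -0.46 on the dimmer probe, so the direction was not the same on both, with adjusted p-values of 0.901 and 0.809.

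Tdgf1, the co-receptor that Nodal needs to engage its receptors, was well above background in all embryos. Its log2 intensity was 11.30, 12.81, 12.40 and 10.79 in fusion clones 1 to 4 and 11.21, 10.91, 11.66 and 10.84 in injection clones 1 to 4. The fusion clones held both the highest and the lowest value of the 14 embryos. Male IVF embryos 1 to 3 measured 12.15, 11.63 and 11.70, and female IVF embryos 1 to 3 measured 11.54, 12.42 and 11.14. Female embryo 2, which had the lowest Nodal and Lefty1 of the female embryos, had the highest Tdgf1 of the 3. The difference from female IVF embryos was 0.12 in fusion clones (95% interval -1.26 to 1.51, adjusted p = 0.902) and -0.55 in injection clones (95% interval -1.42 to 0.33, adjusted p = 0.428). Fusion minus injection clones gave 0.67 (95% interval -0.44 to 1.78, adjusted p = 0.814).

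Of the receptors, Acvr1b encodes a type I activin receptor, the kinase that phosphorylates Smad2. On its brighter probe, A_52_P373893, it measured 12.32, 12.46, 12.89 and 12.19 in fusion clones 1 to 4 and 12.37, 12.20, 12.43 and 12.72 in injection clones 1 to 4. It measured 11.98, 12.22 and 12.01 in male and 12.20, 12.52 and 12.24 in female IVF embryos. These levels spanned 0.91 log2 units over all 14 embryos, with the highest in fusion clone 3 and the lowest in male embryo 1. The differences from female IVF embryos were 0.14 in fusion clones (95% interval -0.38 to 0.67, adjusted p = 0.684) and 0.11 in injection clones (95% interval -0.32 to 0.53, adjusted p = 0.720). The other probe, A_51_P402391, was not well above background in fusion clones, male embryos and female embryos, and was so in 3 of 4 injection clones, at 6.0, 5.13 and 4.73. On that probe, with values at the lowest level counted as 4, injection clones were 1.95-fold brighter than fusion clones (limma adjusted p = 0.794). They were also 1.95-fold brighter than female IVF embryos (adjusted p = 0.268). Injection clone 4 was itself at 4, so these folds are not lower bounds.

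Acvr2b encodes a type II activin receptor, which activates the type I receptor. It was dim but well above background in all embryos, at 6.12, 6.48, 5.71 and 6.65 in fusion clones 1 to 4 and 4.93, 5.51, 5.67 and 6.56 in injection clones 1 to 4. Male IVF embryos 1 to 3 measured 7.83, 7.13 and 6.53, and female IVF embryos 1 to 3 measured 6.45, 6.98 and 6.21. Injection clones 1, 2 and 3 were below all 6 IVF embryos, whereas injection clone 4 was above 3 of them. The difference from female IVF embryos was -0.88 in injection clones (standard error 0.41, 95% interval -1.88 to 0.13, adjusted p = 0.267) and -0.30 in fusion clones (95% interval -1.04 to 0.43, adjusted p = 0.550).

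Lefty1, an antagonist and a target of the pathway, had the widest range of the members, 6.62 log2 units over the 14 embryos. It measured 7.09, 4.75, 6.70 and 4.32 in fusion clones 1 to 4 and was well above background in 3 of these. It measured 4, 4.48, 6.20 and 4 in injection clones 1 to 4 and was well above background in 2 of these. No clone reached the level of female IVF embryos 1 and 3. The female IVF embryos 1 to 3 measured 10.62, 4.65 and 10.19, all well above background, and male embryos 1 to 3 measured 5.41, 4 and 7.56, with 2 well above background. Female embryo 2 lay among the clones, so the groups overlapped.

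Lefty1 averaged 8.48 ± 3.33 (SD, n = 3) over the female IVF embryos. Fusion clones averaged 5.72 ± 1.38 (SD, n = 4) and injection clones averaged 4.67 ± 1.05 (SD, n = 4). The difference from female embryos was -3.81 in injection clones, with a standard error of 1.55 and a 95% interval from -7.58 to -0.05, so that it passed the methods' threshold but was not called (limma adjusted p = 0.211). In fusion clones it was -2.77 (standard error 1.59, 95% interval -6.58 to 1.04, adjusted p = 0.321). Whether Lefty1 was called depended on the inclusion of female embryo 2. This embryo had the lowest Lefty1 of the female embryos, so leaving it out was bound to enlarge the difference. Without female embryo 2 the differences were -4.69 in fusion clones and -5.73 in injection clones, and both were called, with limma adjusted p-values of 0.0387 and 0.0307. Over all alternatives run, the adjusted p of Lefty1 ranged from 0.0387 to 0.565 in fusion clones and from 0.0307 to 0.807 in injection clones. Fusion minus injection clones gave 1.04 (95% interval -0.85 to 2.94, adjusted p = 0.814) and male minus female embryos gave -2.83 (95% interval -7.42 to 1.77, adjusted p = 0.717).

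The levels of primitive endoderm markers are given beside this result. All 9 genes of their list have a probe, and its summed intensity was 175409 to 253560 in fusion clones and 148524 to 207662 in injection clones, against 187758 to 316170 in male and 238474 to 310554 in female IVF embryos. The number of these genes well above background was 6 to 9 in fusion clones, 7 to 9 in injection clones, 8 to 9 in male and 9 in female embryos. The mean log2 intensity of the list was 13.15 and 13.25 in female embryos 1 and 3, which had high Lefty1, and 12.56 in female embryo 2, which did not. The fusion clones did not line up in this way. Fusion clone 1 had the highest Lefty1 of the clones (7.09) with a list mean of 10.47. Fusion clone 2 had the highest list mean of the clones (12.17) with Lefty1 at 4.75. Injection clone 3 had the highest of both in its group (12.04 and 6.20). The epiblast list had means of 13.87, 14.09 and 13.78 in female embryos 1 to 3, highest in embryo 2. Whether the makeup of the embryos plays a part in the levels of Lefty1 was not tested.

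Lefty2, the second antagonist, was well above background in 2 of 14 embryos, at 6.01 in male IVF embryo 1 and 9.61 in female IVF embryo 3. In the other 12 embryos, all 8 clones included, it was at 4 and not well above background. Female IVF embryo 1, with the highest Lefty1, was among these 12. With values at the lowest level counted as 4, the mean of the female embryos was 3.66-fold above either clone group. Limma adjusted p-values were 0.442 for fusion clones and 0.485 for injection clones. This fold rests on 1 of 3 female embryos and is not a lower bound, since the other female embryos were also at 4. Fusion and injection clones could not be compared for Lefty2, since no embryo of either group was above background.

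The effectors varied little among the clones. Smad2, which carries the signal to the nucleus, measured 12.97, 13.23, 13.40 and 12.79 in fusion clones 1 to 4 and 12.98, 12.77, 13.34 and 13.49 in injection clones 1 to 4. Male IVF embryos 1 to 3 measured 12.58, 12.22 and 12.91, and female IVF embryos 1 to 3 measured 13.35, 13.22 and 12.70. The lowest values of Smad2 were in male embryos 2 and 1, below all clones. The difference from female embryos was 0.00 in fusion clones (95% interval -0.58 to 0.59, adjusted p = 0.997), 0.05 in injection clones (95% interval -0.56 to 0.67, adjusted p = 0.916) and -0.52 in male embryos (95% interval -1.28 to 0.24, adjusted p = 0.691).

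Foxh1, the DNA-binding partner of Smad2, measured 9.62, 10.29, 9.97 and 9.99 in fusion clones 1 to 4 and 9.69, 9.61, 10.03 and 10.09 in injection clones 1 to 4. In male IVF embryos 1 to 3 it was 11.82, 10.98 and 10.42, and in female IVF embryos 1 to 3 it was 10.46, 10.49 and 9.36. All 3 male embryos exceeded all 8 clones, whereas female embryo 3 was lower than every other embryo. Male embryos and clones were not tested against each other, and they differ in sex, slide and scanner. The share of all probes that separate them in this way was not computed. Male minus female embryos gave 0.97 for Foxh1 (standard error 0.50, 95% interval -0.27 to 2.22, adjusted p = 0.661). The differences from female embryos were -0.14 in fusion clones (95% interval -0.94 to 0.67, adjusted p = 0.805) and -0.25 in injection clones (95% interval -1.03 to 0.54, adjusted p = 0.652).

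**Figure D2:**
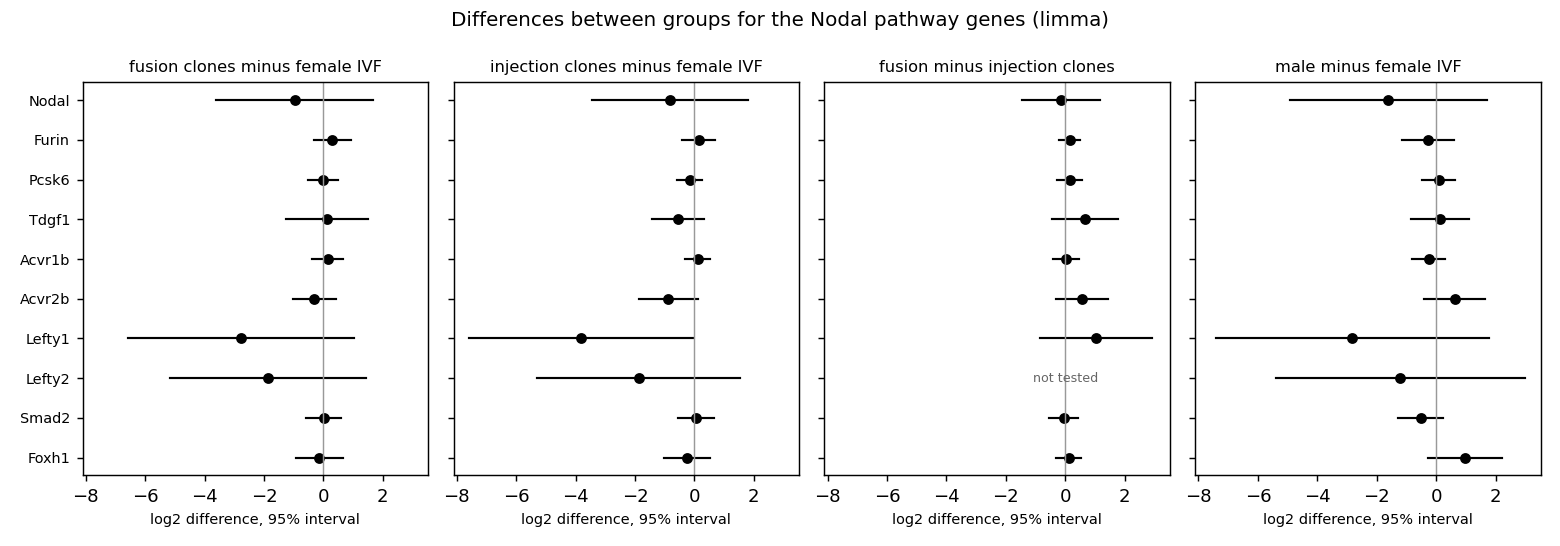
Differences in log2 intensity between groups for each of the 10 genes (rows), one panel per comparison. Points are limma estimates and lines their 95% intervals, and the vertical line marks no difference. Each gene is drawn by its brightest probe. The intervals are widest for Nodal, Lefty1 and Lefty2. Among these probes, Lefty1 in injection clones against female IVF embryos is the 1 whose interval, -7.58 to -0.05, excludes 0.

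No member passed the test between fusion and injection clones, which does not by itself show equal levels. The 95% interval of their difference lay within 1 log2 unit of 0, a 2-fold change in either direction, for Furin (-0.20 to 0.48), the brighter probe of Pcsk6 (-0.27 to 0.58), the brighter probe of Acvr1b (-0.40 to 0.47), Smad2 (-0.54 to 0.44) and Foxh1 (-0.32 to 0.54). For Nodal, Tdgf1, Acvr2b and Lefty1 the interval reached beyond a 2-fold change. The interval of the dimmer probe of Acvr1b (-1.88 to -0.04) also did so and excluded 0, with a limma adjusted p of 0.794.

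Levels of the members were next set against Nodal from embryo to embryo over the 8 clones. Pearson's r with Nodal ranged from -0.31 (Lefty1) to 0.47 (Furin) over the 8 relations that could be computed, since Lefty2 was at 4 in every clone. Furin had an exact two-sided permutation p of 0.242, and all 8 relations had an adjusted p of 0.929. Spearman's rho ranged from -0.19 (Lefty1) to 0.55 (Furin), with exact permutation p-values of 0.647 and 0.171 and an adjusted p of 0.935 for both. Leaving out fusion clone 3 and injection clone 2, the embryos farthest from the median of Nodal, r ranged from -0.39 for Acvr2b, which had been 0.11 over all 8, to 0.74 for Furin. Over these 6 clones it was 0.60 for Tdgf1 (0.04 over all 8), 0.52 for Pcsk6 (0.31), 0.28 for Acvr1b (-0.24), 0.16 for Smad2 (0.04), 0.00 for Foxh1 (0.20) and -0.18 for Lefty1 (-0.31), so that Acvr2b and Acvr1b changed sign. No relation passed the test, and with 4 embryos each the 2 clone types are too few for values of their own.

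Nodal and Lefty1 were both high in female IVF embryos 1 and 3 and both low in female embryo 2 and male embryo 2. The clones did not line up in this way. Fusion clone 2 and injection clone 1 had the highest Nodal of their groups, at 9.03 and 8.97, with Lefty1 at 4.75 and 4. Fusion clone 3 had the lowest Nodal of the clones, at 6.81, with Lefty1 at 6.70.

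**Figure D3:**
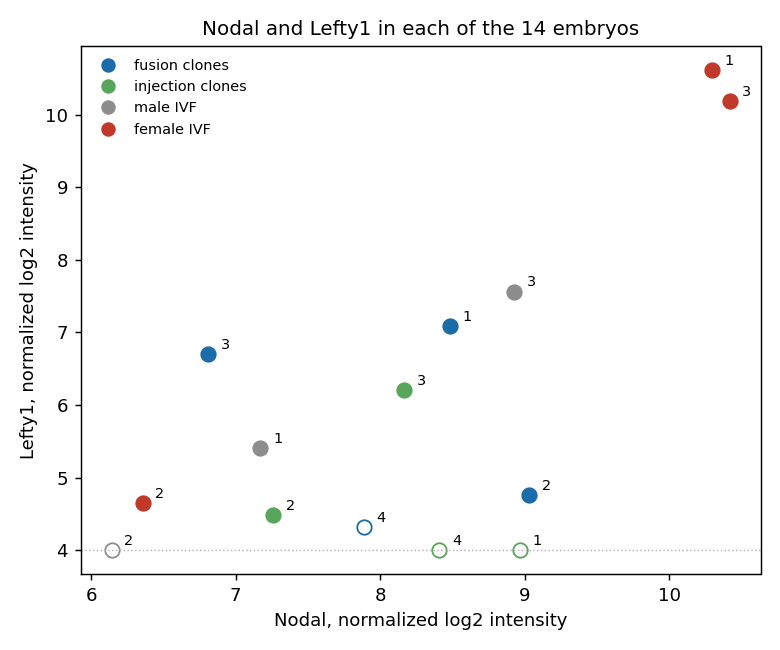
Lefty1 against Nodal, both as normalized log2 intensity, with 1 point for each of the 14 embryos and the replicate number beside it. Filled points are embryos in which Lefty1 was well above background and the dotted line is the lowest value, 4. Female IVF embryos 1 and 3 stand apart at the upper right, above 10 in both genes, and all 8 clones lie at or below 7.09 in Lefty1.

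The wider pathway was described by 36 further genes of Nodal and activin signaling, of which 33 were tested in fusion clones against female IVF embryos. Of these, 1 rose, 3 fell and 29 did not pass the test. By role, 1 of 12 inhibitors rose and 1 fell, 1 of 8 target genes fell and the 1 further co-receptor fell, while 0 of 3 ligands, 0 of 3 receptors, 0 of 5 transducers and 0 of 1 convertase passed on their brightest probe. In injection clones 31 were tested, 0 rose, 2 fell and 29 did not pass. The shares called are set against the 9.5% and 3.67% of all probes given above. Between fusion and injection clones 0 of 32 passed, and between male and female embryos 0 of 31 passed, with 2 and 3 genes respectively at an unadjusted limma p below 0.05. The median difference of the list was -0.06 in fusion clones and -0.18 in injection clones, against -0.12 and -0.08 over all probes.

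Foxa2, a forkhead transcription factor of endoderm and a target of Nodal signaling after implantation, fell in both clone types. It was at 4 in all 8 clones and between 9.93 and 11.40 in the 6 IVF embryos. In fusion clones no array was marked well above background for it, and it was at least 146-fold lower than in female IVF embryos (limma adjusted p = 8.27e-05). This bound sets the mean of the female embryos, all well above background, against the lowest signal still above background on the fusion clone arrays. That signal equals the set lowest value of 4, so the bound depends on this setting, and a higher one would lower it. In injection clones 1 of 4 arrays was marked well above background although its normalized value was at the lowest level, and the log2 difference was -7.19 (adjusted p = 8.94e-05). This call remained in both comparisons when any single embryo was left out. Clones and IVF embryos also differ in slide and scanner, which cannot be told apart from the group.

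Bmp4, a ligand of the BMP branch listed here among the inhibitors of the pathway, fell by 3.16 on the log2 scale in fusion clones (standard error 0.70, adjusted p = 0.0417) and by 3.23 in injection clones (standard error 0.41, adjusted p = 0.0241). It measured 5.95, 6.53, 8.80 and 6.14 in fusion clones 1 to 4 and 6.17, 6.23, 7.66 and 7.10 in injection clones 1 to 4. Female IVF embryos 1 to 3 measured 9.78, 10.20 and 10.08, above every clone. The call in fusion clones was lost when any embryo other than fusion clone 3 was left out, with adjusted p-values of 0.0834 to 0.102. In injection clones it was lost without injection clone 1 or 2 or female embryo 1 or 3, with adjusted p-values of 0.0511 to 0.0655.

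Cfc1 (also called Cryptic), the other co-receptor of the family that includes Tdgf1, measured 7.43, 8.18, 8.47 and 8.33 in fusion clones 1 to 4 and 9.51, 9.92 and 10.44 in female IVF embryos 1 to 3. It fell by 1.86 on the log2 scale in fusion clones (standard error 0.34, adjusted p = 0.0263). The call was lost without fusion clone 2, 3 or 4 or without female embryo 2 or 3, with adjusted p-values of 0.0531 to 0.0676. In injection clones it measured 8.18, 8.05, 8.03 and 8.98, also below the female embryos, with a difference of -1.65 and an adjusted p of 0.0539 that missed the threshold. Tdgf1 was not lower in fusion clones, at 0.12. Whether the change in Cfc1 differs from that in Tdgf1 was not tested.

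Skil, which encodes the Smad-binding repressor SnoN, rose by 0.76 on the log2 scale in fusion clones (standard error 0.15, adjusted p = 0.0297). It measured 12.95, 13.04, 12.86 and 12.87 in fusion clones 1 to 4 and 12.07, 12.19 and 12.26 in female IVF embryos 1 to 3. Its dimmer probe gave -0.49 (adjusted p = 0.70), the probes averaged gave 0.13 (adjusted p = 0.840), and the call was lost when any single embryo was left out, with adjusted p-values of 0.0550 to 0.0863. In injection clones the brighter probe of Skil differed by 0.62 (adjusted p = 0.188). In male IVF embryos Skil lay between 12.89 and 13.09, also above the female embryos.

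Gdf3, a TGF-beta family ligand that also uses Tdgf1, differed from female IVF embryos by -0.32 in fusion clones and -0.07 in injection clones, with adjusted p-values of 0.620 and 0.960. Smad3, the close relative of Smad2, differed by 0.44 and 0.50, with adjusted p-values of 0.551 and 0.60. Smad4, the partner shared by Smad2 and Smad3, differed by -0.32 and -0.31 on its brightest probe, with adjusted p-values of 0.294 and 0.341. Its other probe, A_51_P444740, gave 1.11 in fusion clones (adjusted p = 0.0164), so that the 2 probes of Smad4 disagree in sign. Dimmer probes of 3 other genes of the list were also called although their brightest probes were not, and these genes were named after their values were seen. They were the activin subunit Inhbb (A_52_P152847, -1.43 in fusion clones, adjusted p = 0.0125), the type II receptor Acvr2a (A_52_P664656, -0.99 in fusion clones, adjusted p = 0.0406) and the ubiquitin ligase Smurf2 (A_52_P576886, 1.97 in fusion and 2.37 in injection clones, adjusted p = 0.0283 and 0.0337). On their brightest probes these genes gave -2.88, 0.81 and -0.06 in fusion clones, and Smurf2 gave 0.45 in injection clones, with adjusted p-values of 0.223, 0.212, 0.901 and 0.346. Of the 3 ligands and 5 transducers of this list that were tested in each clone type, 0 were called by their brightest probe.

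**Figure D4:**
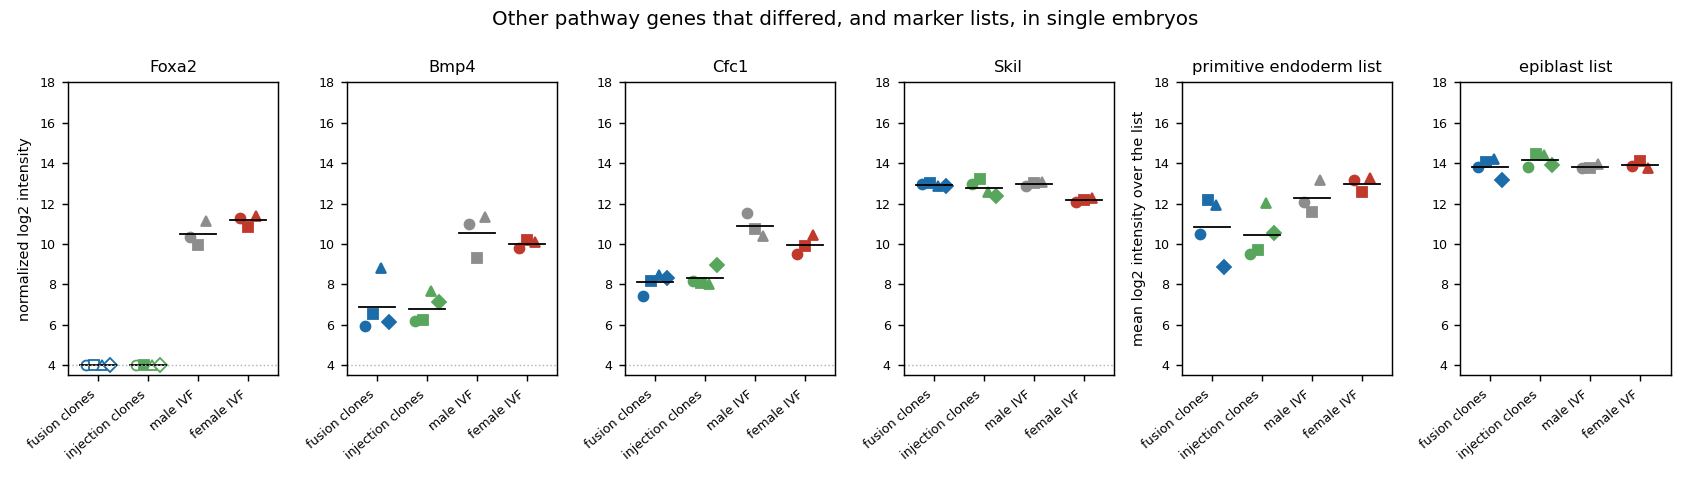
Normalized log2 intensity of the 4 other pathway genes that passed the test in fusion or injection clones (Foxa2, Bmp4, Cfc1 and Skil), and the mean log2 intensity over the primitive endoderm and epiblast marker lists, in single embryos of the 4 groups. Points are embryos (open where not well above background in the gene panels) and lines are group means. Foxa2 is at 4 in all 8 clones and between 9.93 and 11.40 in IVF embryos, the primitive endoderm list runs from 8.85 to 12.17 in clones and from 11.56 to 13.25 in IVF embryos, and the epiblast list lies between 13.18 and 14.48 throughout.

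Among single markers, Sox7, a transcription factor of primitive endoderm, fell by 6.39 on the log2 scale in fusion clones relative to female IVF embryos (adjusted p = 0.0180). This call was lost without female embryo 3 (adjusted p = 0.0536). In injection clones Sox7 differed by -5.28 (adjusted p = 0.0643). Male IVF embryos 1 to 3 measured 9.40, 4 and 12.21 for Sox7. Lama1, a basement membrane laminin of primitive endoderm, fell by 4.43 in injection clones (adjusted p = 0.0444). The call was lost when any single embryo was left out, with adjusted p-values of 0.0580 to 0.110. In fusion clones Lama1 differed by -3.92 (adjusted p = 0.140). Of the 9 primitive endoderm genes, 1 was called lower in each clone type and 8 did not pass. Of all probes, 9.5% were called in fusion clones and 3.67% in injection clones. The median difference of this list was -1.24 in fusion clones and -1.96 in injection clones, against -0.12 and -0.08 over all probes. Its groups did not overlap for 3 genes in fusion and 5 in injection clones, against 25.8% and 20.9% of all probes. Elf5, a trophectoderm transcription factor, fell by 2.96 in fusion clones (adjusted p = 0.0160), the 1 called of 8 trophectoderm genes tested. In injection clones Elf5 differed by -3.65 without a call (adjusted p = 0.0664). Zfp42, an epiblast marker, rose by 0.93 in injection clones (adjusted p = 0.0437), the 1 called of 7 epiblast genes. The call was lost when any single embryo was left out, with adjusted p-values of 0.0569 to 0.118. In fusion clones Zfp42 differed by 0.60 (adjusted p = 0.0597). Of 10 genes typical of cumulus cells, the donor cell type, 3 to 6 were well above background in an embryo, with summed intensities of 1109 to 2755 in fusion clones, 1675 to 2615 in injection clones, 900 to 1182 in male and 1049 to 1093 in female IVF embryos. The higher sums in clones came from Amhr2, a hormone receptor gene, whose log2 intensity averaged 10.38 in fusion clones, 10.80 in injection clones and 9.03 in female IVF embryos (adjusted p = 0.165 and 0.0839). The median difference of the cumulus list from female embryos was -0.61 in fusion clones and -0.63 in injection clones, with 0 genes called, and its mean log2 intensity was 4.85 to 5.49 in clones and 4.91 to 5.75 in IVF embryos. The share of these markers in the results on the members was not tested.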

How the data were processed

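For each of the 14 arrays the authors deposited scanner output of the Feature Extraction software (version 10.5.1.1 for clones and 9.5.3.1 for IVF embryos, per the file headers), which holds a background-subtracted intensity per spot on a linear scale. A second deposited table, of log2 values for these arrays, served as an alternative. Control spots (1639) were left out and outlier spots were set to missing. The processed intensities were then brought to common quantiles across the arrays, values under 16 were raised to 16, and log2 values of repeated spots were averaged. Arrays have no read depth, and the number of embryos limits the precision. Gene names are those in the files. Genes with more than 1 probe are represented by the probe brightest on average, and the other member probes are named. A further probe that RefSeq assigns to a member under another file name was not used.

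Tests used limma 3.58.1 in R 4.3.3 (lmFit and eBayes, two-sided) on probes that 1 or more arrays of a comparison showed well above background, with a call at a Benjamini-Hochberg adjusted p below 0.05 over all of them. Correlations used exact permutations in Python 3.11.15. The steps were tested on simulated data. The slide could not be used as a block, since each slide held 1 group. Same-numbered male and female IVF embryos deviated together (correlations 0.146, 0.172 and 0.171 over 17478 probes), so their replicate numbers may mark pairs. No pairing that involves clones passed this check for every number. The main tests of male against female embryos did not use the pairing. With the replicate numbers as a block, Lefty1 gave -2.83 (standard error 0.996, limma adjusted p = 0.620). Alternatives covered normalization, background, floor, filter, variance model, probe averaging and left-out embryos. The text names all members, called genes of the pathway list (at most 6 per comparison) with Gdf3, Smad3 and Smad4, and fixed or called markers. Members and lists were chosen with earlier results of these data known.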

Additional observations from a re-analysis of the deposited data

Results flagged for a closer look

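In 4 of 53 groups of 4 clones tested, 1 embryo lay far from the other 3 by Dixon's criterion, where chance alone marks about 1 group in 20. Among members this was the dimmer probe of Pcsk6 in fusion clone 2, at 7.13 on the log2 scale against 6.06 to 6.24 in the other fusion clones. The others were Cfc1 in injection clone 4 (8.98 against 8.03 to 8.18), Zfp42 in injection clone 1 (15.93 against 16.33 to 16.39) and Gata4 in injection clone 3 (6.47 against 4 to 4.19). Injection clone 3 also had the highest Lefty1 of its group. The fusion clones did not pair in this way. Fusion clone 2 had the highest Gata4 of its group (7.44) with Lefty1 at 4.75. Fusion clone 1 had the highest Lefty1 (7.09) with Gata4 at 4.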

How the results depend on the processing

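The count of member genes called, 0 in each comparison, stayed at 0 in 81 planned recalculations and changed in 3. It was 1 (Lefty1) in fusion and in injection clones against female IVF embryos without female embryo 2, a range of 0 to 1 over embryos left out. Of all probes, 2824 of 31796 and 925 of 32268 were called there. It was also 1 (Lefty1) in injection clones by the methods' threshold, which 4603 of 32840 probes passed. Of other pathway genes, fusion clones against female embryos had 4 called, 0 with a replicate block, 1 to 3 with 1 embryo left out, and 1 without fusion clones 1 and 4 together, chosen after seeing the data for their low Gata4. Of all probes, 3085 of 32458 were called in the main test. The count was 1125 of 32055 without fusion clone 2 and 1660 of 32080 without fusion clone 4. It was 478 of 31514 without fusion clones 1 and 4 together. Injection clones had 2 called, 5 by the methods' threshold, 0 with a replicate block and 1 to 3 with 1 embryo left out. They had 4 with control spots in the quantiles, with normexp background, with a stricter background filter or with all 4 groups in 1 fit. Of all probes, these 4 settings called 1858 of 32840, 1503 of 32840, 1932 of 23125 and 3100 of 32840, against 1205 of 32840 in the main test. Without injection clone 1 or 2 the pathway count was 1, where 244 of 32447 and 160 of 32462 probes were called. A fit without injection clones 1, 2 and 4 together, also chosen after seeing the data, leaves 1 clone and is not counted. Male against female embryos had 0 called and 1 (Inha) by the methods' threshold. With the replicate block no probe of the array was called in any comparison, and Foxa2 had an adjusted p of 0.0950 in fusion and 0.143 in injection clones. The numbers do not pair clones with IVF embryos. The cause of these changes was not tested. No called value changed sign. Correlations with Nodal passed the test under none of the alternatives. With 3 or 4 embryos a group, the intervals of Nodal and Lefty1 span several log2 units, and Lefty2 was at the lowest level in most embryos.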
